A study of Mus musculus with 4 samples.

Results

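The cells described here are MC38 tumor cells in which no UMI (unique molecular identifier, 1 counted RNA molecule) of Edil3, Col6a1 or Col6a2 was found. They were selected on measured counts of 13 genes. A tumor cell had at least 5000 UMIs, at least 2 UMIs of Hmga2 and Tm4sf1 together, at least 2 of Rhox5 and Prl2c2 together, and 0 of Ptprc, Pecam1 and Pdgfra. The 10% of these cells with the largest share of Ifit1, Ifit3 and Rsad2 UMIs was left out as interferon-high. Of 33228 cells in the series 3243 passed the tumor gate, and 1397 of those had 0 UMIs of the 3 genes and are called negative cells below. Another 1522 had at least 1 such UMI and are called positive cells, and 324 were interferon-high. Since the counts of the 13 genes made the choice, their levels are given as a description only.

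MC38 is a mouse colon adenocarcinoma line, here grown as tumors in young adult C57BL/6 mice. One tumor line had unedited RAC1 (WT), which encodes a small GTPase of the cytoskeleton, and the other an A159V substitution knocked into that gene with CRISPR-Cas9. The host mice received isotype control antibody (IgG) or anti-PD1, which blocks an inhibitory receptor of T cells. Each of the 4 combinations, A159V anti-PD1, WT anti-PD1, A159V IgG and WT IgG, gave 1 single-cell RNA-seq library. Leukocytes (CD45+) had been sorted from CD45- cells on beads and the fractions recombined for loading, so the number of tumor cells in a library does not give their share in the tumor. The study obtained several A159V clones, reports that they behaved similarly, and shows data of 1 of them unless stated otherwise. Genotype, clone, tumor and library therefore cannot be told apart. With 1 library per group no test was possible, and the intervals below (95%) describe counting error and nothing else.

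Col6a1 and Col6a2 encode chains of collagen VI, a beaded-filament collagen that lies around cells and is known mostly as a product of fibroblasts and other mesenchymal cells. Edil3 encodes a secreted protein that binds integrins through an RGD motif. Carcinoma lines with mesenchymal traits can make such matrix proteins themselves, and whether these cells did was not tested. On GRCm38 (GENCODE M21) the genes lie at chr13:88821472-89323223 (Edil3, plus strand), chr10:76708792-76726168 (Col6a1, minus strand) and chr10:76595762-76623630 (Col6a2, minus strand).

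Negative cells made up 18.8% of the tumor cells that were not interferon-high in WT IgG (155 of 824 cells, interval 16.2 to 21.6). They were 60.8% in A159V IgG (804 of 1322, 58.1 to 63.5) and 57.6% in the A159V anti-PD1 library (438 of 760, 54.0 to 61.2). WT anti-PD1 held only 13 such tumor cells, 0 of which were negative, which allows a share of up to 23.1% by a limit of 3 cells and up to 24.7% by the exact interval used for the other shares. That library enters no further comparison. The share in A159V IgG was 3.23-fold that in WT IgG (interval 2.79 to 3.75), and the share in A159V anti-PD1 was 0.948-fold that in A159V IgG (0.879 to 1.02). A tumor cell held on average 10.3 UMIs of the 3 genes in WT IgG, 1.40 in A159V IgG and 1.69 in the A159V anti-PD1 library. Each of the 3 genes was lower in A159V: a UMI of Edil3 was seen in 36.4% of WT IgG and 8.93% of A159V IgG tumor cells, one of Col6a1 in 73.2% and 31.7%, and one of Col6a2 in 50.4% and 15.7%.

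A count of 0 depends on depth. When every cell was thinned to 5000 UMIs, 50.5% of tumor cells had none of the 3 genes in WT IgG, 85.6% in A159V IgG and 85.1% in the A159V anti-PD1 library, a fold of 1.70 (1.58 to 1.82) between the IgG libraries. Median depth of negative cells was 32271 UMIs in WT IgG, 31082 in A159V IgG and 40436 in the A159V anti-PD1 library, and that of positive cells was 32514, 33737 and 43181. In 1 cell at the median depth of the negative cells, 0 UMIs allow a level of up to 93.0, 96.5 and 74.2 CPM in the 3 libraries (CPM, UMIs of a gene per 1000000 UMIs of the cell or class). Within each range of depth WT IgG had the lowest share of the 3 libraries. Among cells with at least 20000 and under 40000 UMIs, 17.8% were negative in WT IgG, 64.2% in A159V IgG and 60.7% in the A159V anti-PD1 library. Among cells with at least 40000 UMIs the shares were 18.2%, 53.4% and 53.7%.

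**Figure D1:**
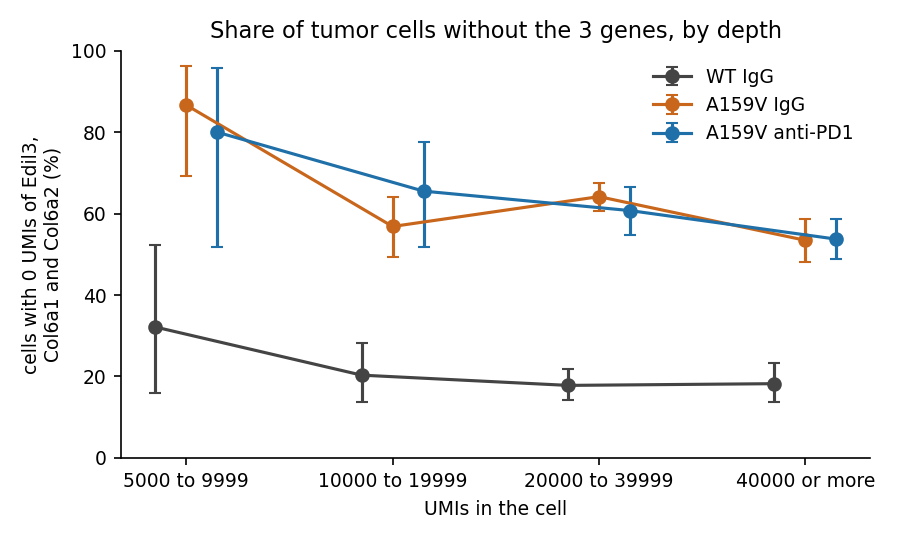
Share of tumor cells (%) with 0 UMIs of Edil3, Col6a1 and Col6a2 by the number of UMIs in the cell, for the 3 libraries with negative cells. Points are shares and bars are exact 95% binomial intervals. The WT IgG points lie under both A159V points in all 4 ranges of depth, and the range from 5000 UMIs holds only 28, 30 and 15 cells.

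Some cells lay near the limits of the gate. The shallowest negative cell had 5318 UMIs, and 14 cells under 5000 UMIs met the other conditions, the deepest at 4964. Ifit1, Ifit3 and Rsad2 together reached 1470 CPM in the negative cell nearest to the interferon limit, against 1472 CPM in the nearest cell left out. Exactly 2 UMIs of Hmga2 and Tm4sf1 were found in 135 negative cells, and exactly 2 of Rhox5 and Prl2c2 in 5. A further 113 WT IgG, 236 A159V IgG and 150 A159V anti-PD1 cells had 1 UMI of the 3 genes and lay just outside. Between libraries 107 barcodes were shared, and 14 negative cells carried one of them.

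The third common chain of collagen VI, Col6a3, was not part of the choice and was still found in some of the cells. At least 1 Col6a3 UMI was present in 19.4% of negative cells in WT IgG, 14.4% in A159V IgG and 27.9% in the A159V anti-PD1 library. After thinning the shares were 4.52%, 4.98% and 8.68%, beside 1.77%, 0.273% and 0.922% of immune cells. The cells are therefore named here by their counts of Edil3, Col6a1 and Col6a2 and not as cells without collagen VI.

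The 5 genes proposed as markers of these cells were Prl2c3, Dynap, Gdf15, Hmox1 and Rhox5. Prl2c3 is a member of the proliferin group of placental prolactin-like hormones, and its level in negative cells was 98.6 CPM in WT IgG, 254 in A159V IgG and 557 in the A159V anti-PD1 library. Positive cells had 43.8, 169 and 441 CPM. Dynap, which encodes a dynactin-associated membrane protein, stood at 13.9, 62.7 and 70.7 CPM in negative cells and 8.28, 36.5 and 60.4 in positive cells. Gdf15, a stress-induced cytokine of the TGF-beta superfamily, stood at 140, 203 and 168 CPM against 114, 175 and 146. Hmox1, the inducible enzyme that breaks down heme, stood at 207, 484 and 425 CPM against 164, 374 and 383. For these 4 genes the summed level was higher in the negative cells of each of the 3 libraries, by 0.15 to 1.15 on the log2 scale. For Hmox1 in WT IgG this rested on 1 cell, which held 28.9% of the UMIs. With the top cell of each class left out, Hmox1 stood at 148 CPM in negative and 157 in positive cells of WT IgG, or -0.08 on the log2 scale. Rhox5, a reproductive homeobox gene that is expressed in MC38, was used in the tumor gate and stood at 952, 1106 and 1071 CPM, which was -0.04, 0.02 and 0.04 on the log2 scale relative to positive cells, so it did not set the cells apart. The distance between the genotypes was wider than that between negative and positive cells of a library for Prl2c3, Dynap, Gdf15 and Hmox1, at 1.36, 2.09, 0.54 and 1.22 on the log2 scale for A159V IgG over WT IgG negative cells. For Prl2c3 it was 0.77 when the gate also asked for 0 UMIs of 7 stromal and myeloid genes (Col1a1, Col1a2, Col3a1, Dcn, Cd74, Lyz2 and C1qa), a stricter gate that left 28 WT IgG and 191 A159V IgG negative cells. Prl2c2, Prl2c3 and Prl2c5 are near-identical copies, and how reads were divided among them is uncertain.

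**Figure D2:**
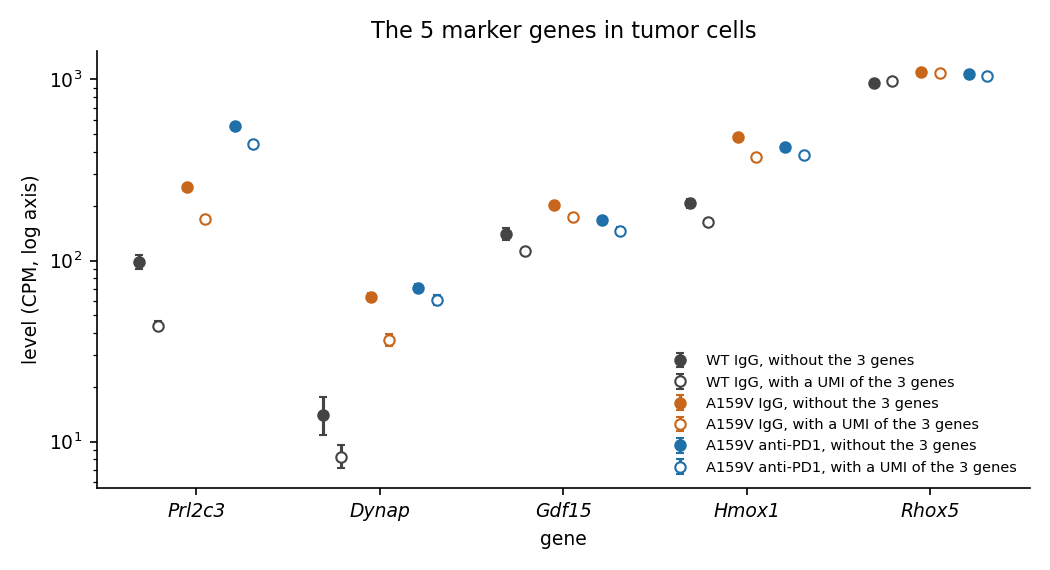
Level (CPM, log axis) of the 5 marker genes in negative cells (filled points) and positive cells (open points) of 3 libraries, with exact 95% Poisson intervals. Filled points lie above open points of the same color for Prl2c3, Dynap, Gdf15 and Hmox1, and they nearly coincide for Rhox5, while the A159V points of the first 4 genes lie above both WT points.

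After thinning to 5000 UMIs a Prl2c3 UMI was found in 23.9% of negative cells in WT IgG (17.4 to 31.4), 47.1% in A159V IgG (43.6 to 50.7) and 69.9% in the A159V anti-PD1 library (65.3 to 74.1). The shares in unthinned cells were 52.3%, 78.7% and 94.1%. Immune cells of the same libraries with at least 2 Ptprc and 5000 UMIs in all (905, 366 and 868 cells with median depths of 6821, 6978.5 and 6522.5 UMIs), which should lack the gene, gave 0.331%, 1.91% and 3.69% after thinning. Hmox1 was found in 34.2%, 64.1% and 58.0% of thinned negative cells, in 37.1%, 58.3% and 54.3% of thinned positive cells, and also in 30.1%, 23.2% and 40.9% of thinned immune cells, where macrophages make it. In WT IgG the intervals of the negative (26.8 to 42.2) and positive (33.4 to 40.9) cells overlapped. None of the 4 markers outside the gate was found in 29.7% of thinned negative cells in WT IgG, 9.95% in A159V IgG and 5.71% in the A159V anti-PD1 library.

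Negative and positive cells of one library had nearly the same profile. Of 3058 genes that reached 50 CPM in 1 of the 2 classes in every library, 0 (0%) were at least 2-fold higher in negative cells in all 3 libraries and 1 (0.0327%) was at least 2-fold lower. That gene was Col6a3, the chain that the choice did not use. It stood at 14.5 CPM in negative and 87.7 in positive cells of WT IgG, 10.1 and 57.0 in A159V IgG, and 19.6 and 72.2 in A159V anti-PD1, or -2.51, -2.38 and -1.83 on the log2 scale. In single libraries 12 genes were 2-fold lower and 3 higher in WT IgG, 4 and 0 in A159V IgG, and 1 and 0 in A159V anti-PD1. The differences that follow are smaller than 2-fold in at least 1 library and are described because their direction was the same in all 3. How many of the 3058 genes had 1 direction in all 3 libraries is not given. Counts of listed genes with 1 direction therefore stand without a background. Under the stricter gate 28, 191 and 61 negative cells were left, and 0 genes passed 2-fold in all 3 libraries. Col6a3 then lay at -1.31, -2.75 and -0.82.

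Other matrix genes lay in the direction of collagen VI. Of 31 listed extracellular matrix genes 10 had at least 50 CPM, and 9 of these were lower in negative cells of all 3 libraries. Their median log2 ratio was -0.70 in WT IgG, -0.36 in A159V IgG and -0.29 in the A159V anti-PD1 library, against medians of 0.01, -0.02 and -0.00 over all 3058 genes. Fn1, which encodes fibronectin, stood at 66.4 CPM in negative and 196 in positive cells of WT IgG, at 198 and 361 in A159V IgG, and at 173 and 321 in A159V anti-PD1. Sparc, a collagen-binding matricellular protein, stood at 61.3 and 193, 46.7 and 108, and 50.1 and 88.5 CPM. Serpinh1, the collagen chaperone HSP47, was nearer to even, at -0.70, -0.39 and -0.25 on the log2 scale. Col5a1 stood at 21.0 and 53.7, 37.8 and 68.3, and 46.6 and 70.0 CPM. Lama5, a laminin chain of basement membranes, was below the 50 CPM minimum and went the other way, at 24.6 and 18.2, 18.3 and 13.4, and 23.3 and 17.2 CPM. Under the stricter gate the matrix median was -0.71, -0.29 and -0.08 on the log2 scale, so it was near even in A159V anti-PD1. Fn1 then lay at -1.18, -0.69 and 0.63, so its direction turned in A159V anti-PD1, and Sparc at -1.42, -0.73 and -0.89. Fibroblasts make Fn1 and Sparc in large amounts (2623 and 8544 CPM in stromal cells of A159V IgG). The summed level of 11 stromal and vascular markers was 104.5, 67.4 and 62.8 CPM in negative cells and 280, 149 and 85.2 CPM in positive cells, beside 53958 to 82315 CPM in stromal cells, and its part in these differences was not tested.

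Among genes not concentrated in immune or stromal cells, the 12 with the most even lower values in negative cells were Sema3a, Cav1, Hes1, Ccl2, Fgfr1, Slc23a2, Gng11, Wls, Casp4, Spp1, Brinp3 and Fos. Cav1, the main protein of caveolae, stood at 30.8 CPM in negative and 82.4 in positive cells of WT IgG, at 47.8 and 76.1 in A159V IgG, and at 49.96 and 85.9 in A159V anti-PD1. Hes1, a transcriptional repressor downstream of Notch, stood at 106 and 221, 80.4 and 126, and 57.1 and 102 CPM. Ccl2, the chemokine that draws monocytes, stood at 880 and 1347, 419 and 734, and 594 and 1005 CPM. Ccl7, of the same chemokine group, was low in negative cells (41.8, 11.6 and 9.79 CPM, with 53.1% of the WT IgG UMIs in 1 cell, and 19.8 CPM in WT IgG without it) and stood at 176, 42.3 and 35.6 CPM in positive cells, which left it under the minimum. Of 16 listed chemokines 3 reached it, and only Ccl2 among these was lower in all 3 libraries. In WT IgG and A159V anti-PD1, however, negative cells had more Ccl2 than positive cells with 1 UMI of the 3 genes, as given below. Sema3a, a secreted guidance cue, lay at -0.66, -1.07 and -0.67 on the log2 scale, and Fgfr1, a receptor for fibroblast growth factors, at -1.10, -0.63 and -0.58. Under the stricter gate Ccl2 kept its direction at -1.76, -0.67 and -1.04, while Cav1 and Hes1 lay at 0.01 and 0.23 in A159V anti-PD1.

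The 12 genes with the most even higher values were 1700034P13Rik, Gadd45a, Bcar3, Prl2c3, Anxa3, Ptprk, Snhg9, Wfdc2, Zfas1, Odc1, Wwc1 and Plxdc1. Gadd45a, a growth arrest and DNA damage gene, stood at 68.4 CPM in negative and 38.9 in positive cells of WT IgG, at 157 and 109 in A159V IgG, and at 116 and 90.4 in A159V anti-PD1. Wfdc2, a secreted whey acidic protein domain inhibitor of the epithelial kind, stood at 299 and 193, 555 and 450, and 556 and 456 CPM. Anxa3, a calcium-dependent lipid-binding protein, stood at 109 and 68.6, 173 and 128, and 145 and 116 CPM. Odc1, the first enzyme of polyamine synthesis, lay at 0.26, 0.43 and 0.34 on the log2 scale. Areg, an EGF receptor ligand, stood at 15.9 and 10.4, 57.4 and 24.5, and 52.5 and 30.7 CPM, and 33.3% of its UMIs in WT IgG negative cells came from 1 cell. Under the stricter gate Gadd45a lay at 1.16, 0.37 and 0.72 on the log2 scale, and Prl2c3 at 1.72, -0.25 and 0.91, so that its direction turned in A159V IgG. The integrin chain Itga6, a laminin receptor of epithelia, lay at 0.61, 0.32 and 0.31 in the gate used throughout.

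Levels of several of these genes were graded over the number of UMIs of the 3 genes, although the steps were uneven. In A159V IgG, Fn1 stood at 198 CPM in cells with 0 UMIs, 248 with 1, 370 with 2 or 3 and 531 with 4 or more. Prl2c3 stood at 254, 233, 131 and 105 CPM and Areg at 57.4, 30.9, 24.8 and 14.2 in the same 4 groups, so that the widest step in CPM lay between 0 and 1 UMI for Areg. In WT IgG, Fn1 stood at 66.4, 83.0, 81.8 and 261 CPM, so that the highest group stood apart, and Prl2c3 at 98.6, 83.0, 57.7 and 28.9. In A159V anti-PD1, Prl2c3 was at 557, 491, 546 and 268 CPM. Ccl2 stood at 880, 617, 772 and 1721 CPM in WT IgG, where 1 cell held 22.4% of the Ccl2 UMIs of the negative cells. It stood at 594, 529, 1049 and 1719 CPM in A159V anti-PD1, and rose from 419 to 525, 761 and 1038 in A159V IgG. Sema3a in WT IgG was flat below the highest group, at 206, 201, 211 and 396 CPM. Rac1 stayed between 394 and 441 CPM in all 12 groups.

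**Figure D3:**
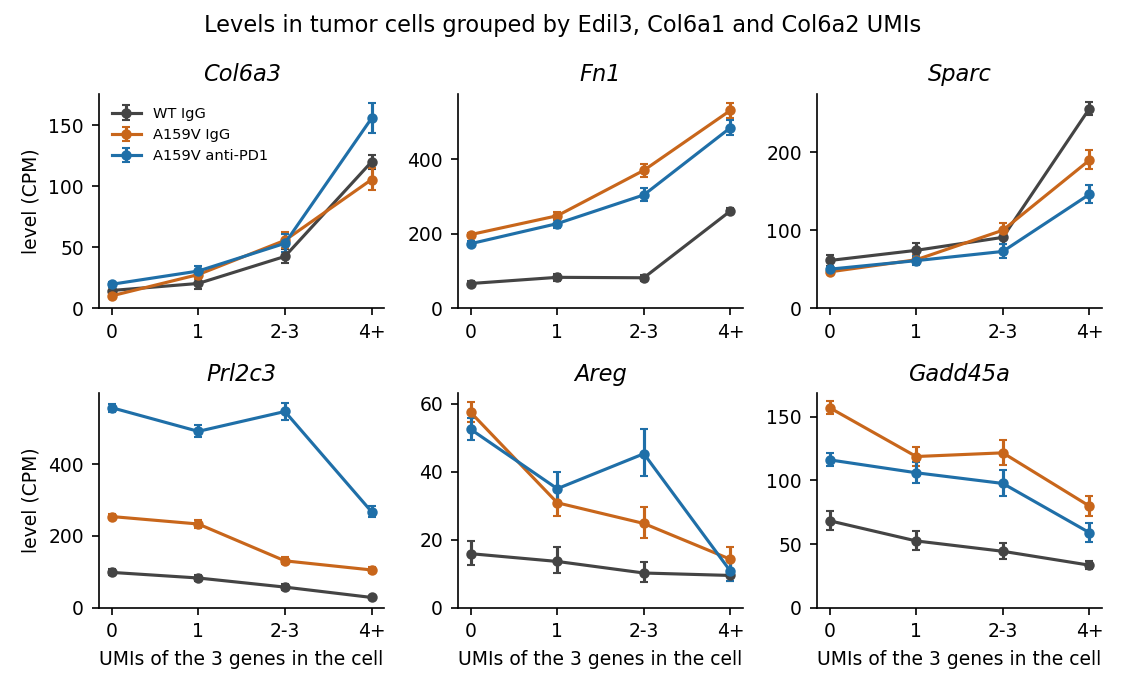
Level (CPM) of 6 genes in tumor cells grouped by the summed UMIs of Edil3, Col6a1 and Col6a2 in the cell, with exact 95% Poisson intervals, for 3 libraries. In all 3 libraries Col6a3, Fn1 and Sparc were lowest at 0 and highest at 4 or more UMIs, and Prl2c3, Areg and Gadd45a were lowest at 4 or more.

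Cell cycle lists showed a small shift, beside medians of 0.01, -0.02 and -0.00 on the log2 scale over all 3058 genes. The counts by direction have no background over all genes. Of 22 listed G2/M genes 16 reached the minimum and 12 of these were lower in negative cells of all 3 libraries, with medians of -0.26, -0.08 and -0.05 on the log2 scale. Of 22 S phase genes 15 reached it, 7 of them higher in all 3 libraries, with medians of 0.25, -0.01 and 0.13. Top2a, the topoisomerase of dividing cells, stood at 289, 323 and 392 CPM in negative cells, and a Top2a UMI was seen in 58.1%, 60.4% and 61.0% of them after thinning, beside 59.0%, 64.5% and 63.7% of positive cells. Glycolysis and hypoxia genes were also slightly lower: 13 of 18 measured were lower in negative cells of all 3 libraries and 0 higher, with medians of -0.16, -0.06 and -0.09. Under the stricter gate the G2/M median was 0.30 in WT IgG and the hypoxia median 0.11 in A159V anti-PD1. Among cells matched on depth the G2/M median of A159V IgG was 0.00178. ATF4 stress response genes leaned the other way, with 9 of 13 higher in all 3 libraries, 1 lower and medians of 0.11, 0.09 and 0.07.

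Negative cells were then compared between genotypes, in A159V IgG over WT IgG. Rac1 itself stood at 424 CPM in WT IgG, 407 in A159V IgG and 411 in the A159V anti-PD1 library, and an RNA level does not check the substitution. Of 3518 genes that reached 50 CPM in 1 of the 2 libraries, 39 (1.11%) were at least 2-fold higher in A159V and 68 (1.93%) at least 2-fold lower, with a median of 0.08 on the log2 scale. In positive cells 46 and 66 of the same genes passed 2-fold. The 155 WT negative cells held 5090931 UMIs and the 804 A159V cells 25732560, so a level of 50 CPM rested on fewer counts in WT. The count of higher genes was 73 under the stricter gate.

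Ifitm1, an interferon-induced membrane protein that hinders virus entry, showed the lowest ratio. It stood at 106 CPM in WT IgG, 3.03 in A159V IgG and 6.03 in the A159V anti-PD1 library, a log2 ratio of -4.73 (-5.00 to -4.46) for genotype, and positive cells gave -4.77. An Ifitm1 UMI was found in 58.7% of WT and 5.47% of A159V IgG negative cells. S100a4, a calcium-binding protein of motile mesenchymal cells, stood at 941, 158.6 and 168 CPM. Vim stood at 1888, 861 and 1010 CPM. Of 7 measured tumor line and epithelial genes 5 were lower in A159V IgG, 1 of them past 2-fold, and 2 were higher, each past 2-fold. Their median was -0.58 on the log2 scale, against 0.08 over all genes, and the counts by direction have no such background. The epithelial markers Krt8, Krt18, Epcam and Cdh1 were at most 1.18 CPM in negative cells of any library and thus under the minimum. The others of the 12 lowest genes were AY036118, Hist1h2ap, Sema3a, Gm17268, Zfhx3, Rorb, Pde4d, Arl15, Baiap2 and Hist1h2ae, at -2.03 to -1.52 on the log2 scale. AY036118 is a transcript of ribosomal RNA sequence, and the 2 histone genes make mostly RNA without a poly(A) tail. Sema3a stood at 206 CPM in WT IgG, 59.5 in A159V IgG and 62.6 in the A159V anti-PD1 library. Rorb, an orphan nuclear receptor, stood at 225, 71.9 and 83.9 CPM.

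The 12 highest genes were Adam2, Col5a3, Dynap, Gm41609, Cox6a2, AC160336.1, Gsta2, 2310039L15Rik, Slpi, Gsta4, Areg and Gm28153. Adam2, a sperm surface ADAM protein, stood at 23.0 CPM in WT IgG, 131 in A159V IgG and 82.7 in the A159V anti-PD1 library, a log2 ratio of 2.46 (2.21 to 2.72) for genotype. Slpi, a secreted inhibitor of leukocyte proteases, was the most abundant of them at 131, 512 and 545 CPM. The glutathione transferases Gsta2 and Gsta4 stood at 19.1, 79.7 and 94.5 CPM and at 18.9, 74.6 and 78.9 CPM. Areg stood at 15.9, 57.4 and 52.5 CPM, and its relative Ereg, also an EGF receptor ligand, at 21.0, 68.7 and 67.3. Col5a3 and Fn1, which positive cells had more of, were nonetheless higher in A159V negative cells, at 17.3, 78.7 and 114 CPM and at 66.4, 198 and 173 CPM, and 3 of the 10 measured matrix genes passed 2-fold in this direction. Il33, an alarmin cytokine named here after its values were seen because stromal cells hold far more of it, stood at 4.32, 58.5 and 53.2 CPM. Its WT value came from 1.94% of the cells, with 54.5% of the UMIs in 1 cell.

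**Figure D4:**
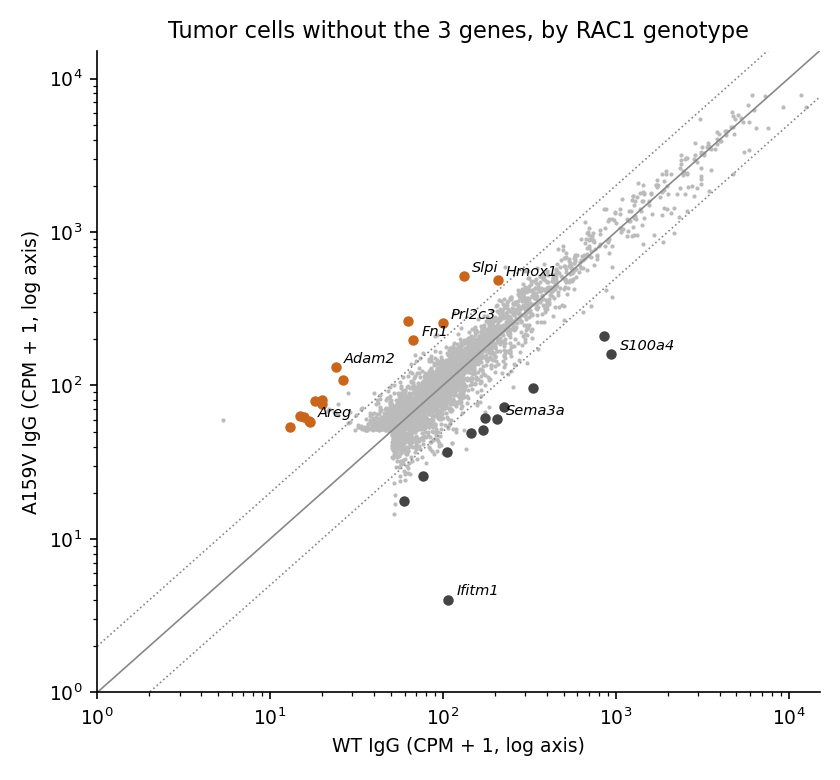
Level in negative cells of A159V IgG against WT IgG (CPM + 1, both axes logarithmic), for 3518 genes that reached 50 CPM in 1 of the 2 libraries. Solid line, equal levels, and dotted lines, 2-fold. Orange points are the 12 highest named genes with Hmox1, Prl2c3 and Fn1, and dark points are the 12 lowest, among which Ifitm1 lies far below the others at 3.03 CPM in A159V IgG.

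Several listed pathways differed between the genotypes, by less than 2-fold for most genes. How many of all genes lay in either direction is not given, so counts of listed genes by direction stand without a background. Of 18 measured hypoxia and glycolysis genes 17 were higher in A159V IgG and 0 passed 2-fold, with a median of 0.42 on the log2 scale, against 0.08 over all genes. Pgam1 stood at 683, 984 and 901 CPM, Ldha, which makes lactate, at 918, 1223 and 1114, and Bnip3, a hypoxia-induced mitophagy receptor, at 82.5, 148 and 149. Of 15 measured genes of the NRF2 and heme response, which handles oxidants and iron, 12 were higher, 1 of them past 2-fold (Hmox1), with a median of 0.35. Fth1, the ferritin heavy chain, stood at 3080, 5406 and 5339 CPM. Nqo1, a classical NRF2 target, was at 20.6, 12.5 and 15.8 CPM and thus under the minimum. Of 18 measured G2/M genes 15 were higher, with a median of 0.37. Chemokines were lower, with 4 of 4 measured below WT, 2 of them past 2-fold (Ccl2 and Ccl5, the latter at 135, 37.6 and 49.1 CPM), and a median of -0.94. Single cells carried much of this in WT IgG, where 1 cell held 66.4% of the Ccl5 and 1 cell 22.4% of the Ccl2 UMIs. With the top cell of each gene left out of both libraries, Ccl5 stood at 45.8 CPM in WT IgG and 32.8 in A159V IgG, Ccl2 lay at -0.80 on the log2 scale, and neither passed 2-fold.

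Genes of antigen presentation and interferon gamma signaling were lower in A159V IgG negative cells and nearer to the WT level in A159V anti-PD1. These genes carry peptides to the cell surface on MHC class I (H2-K1, H2-D1, B2m), load them (Tap1, Tap2, Tapbp), cut them (Psmb8, Psmb9, Psmb10) or relay the interferon signal (Jak1, Irf1). Of 15 measured, 14 had a lower level in A159V IgG than under the same antibody in WT, 2 of them past 2-fold (Irf1 and Gbp2), with a median of -0.61 on the log2 scale. Of 16 measured in A159V anti-PD1 over A159V IgG, 16 were higher and 1 passed 2-fold (Gbp2), with a median of 0.61, against 0.05 over all 3452 genes of that comparison. The comparisons share the A159V IgG library, and the counts by direction stand without a background over all genes. H2-K1 stood at 1976 CPM in WT IgG, 1419 in A159V IgG and 1870 in the A159V anti-PD1 library. Tapbp stood at 280, 165 and 279 CPM, Psmb9 at 162, 103 and 160, and Irf1 at 163, 76.6 and 131. Jak1 was the 1 gene not lower in A159V IgG, at 73.9, 89.0 and 100 CPM. The A159V IgG library was the lowest of the 3 for 15 of the 16 genes. Interferon-high cells, left out by 1 cut pooled over libraries, had more of the 22 listed genes. These summed to 9604, 5848 and 7154 CPM in interferon-high cells of WT IgG, A159V IgG and A159V anti-PD1, beside 6659, 4708 and 6245 CPM in negative cells. The choice of cells thus removed cells high in the genes compared here.

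Under anti-PD1, 5 of 3452 genes (0.145%) were at least 2-fold higher and 1 (0.029%) at least 2-fold lower in A159V negative cells. The higher ones were Iigp1, Gbp2, Nppb, Prl2c3 and Gbp7, and Igtp was next at 0.997 on the log2 scale, just under the limit. The stricter gate gave 8 higher and 5 lower genes, and cells matched on depth gave 8 higher. Iigp1, Gbp2, Gbp7 and Igtp are interferon-induced GTPases that act on vacuoles of intracellular pathogens. Iigp1 stood at 91.1 CPM in WT IgG, 36.3 in A159V IgG and 122 in the A159V anti-PD1 library, a log2 ratio of 1.73 (1.62 to 1.83) for anti-PD1. Gbp2 stood at 82.5, 38.9 and 122 CPM, Gbp7 at 46.4, 25.7 and 56.8, and Igtp at 43.8, 30.7 and 62.2. For each of the 4 the A159V IgG library was the lowest and the A159V anti-PD1 library the highest. A Gbp2 UMI was found in 15.3% of thinned A159V IgG negative cells (12.9 to 18.0) and 38.1% of A159V anti-PD1 negative cells (33.6 to 42.9). Immune cells of the same libraries also had more, at 19.7% and 44.1%. Positive cells gave log2 ratios of 1.15, 1.58, 0.97 and 0.85 for Iigp1, Gbp2, Gbp7 and Igtp, so the difference was also present in cells with collagen VI or Edil3. In the stricter gate Iigp1 lay at 0.91 and Gbp2 at 1.59 in negative cells. That gate asks for 0 UMIs of Cd74, which 26.5% of A159V IgG and 53.9% of A159V anti-PD1 negative cells carried. Interferon gamma is known to induce Cd74, which is also an immune marker. The source of the Cd74 UMIs, and its part in the values of this gate, was not tested.

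**Figure D5:**
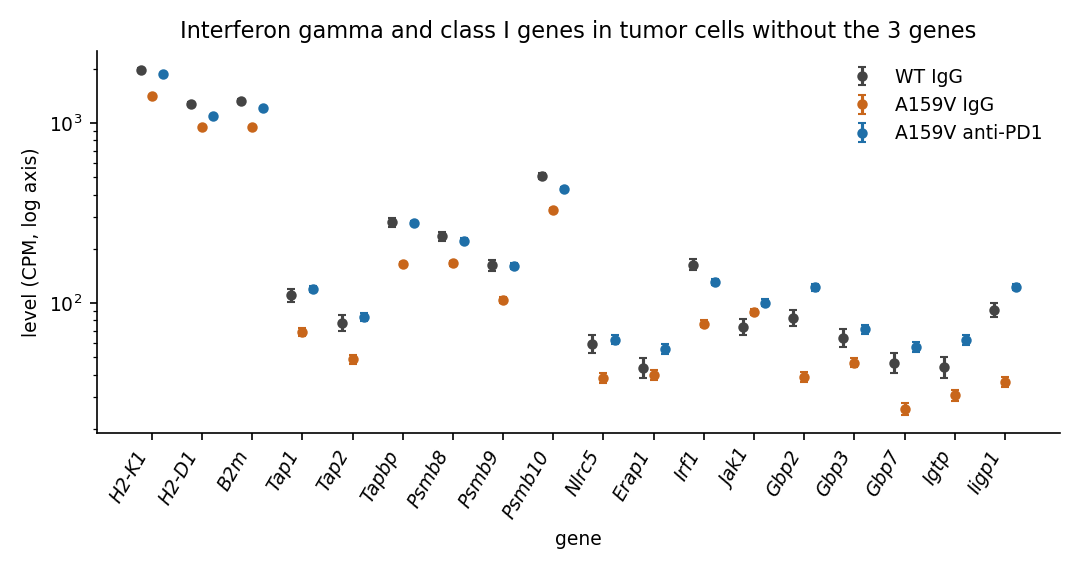
Level (CPM, log axis) in negative cells of 3 libraries for 15 of the 16 measured genes of antigen presentation and interferon gamma signaling and for Gbp7, Igtp and Iigp1, with exact 95% Poisson intervals. The A159V IgG point is the lowest for every gene shown except Jak1, where WT IgG is lowest.

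The bases before the start of 3 of these GTPase genes are shown because the genes were higher together under anti-PD1 and hold 1 or both of 2 motif patterns known from interferon-regulated promoters. Sequences are from RefSeq (GRCm38.p6), 5′ to 3′ on the plus strand, and end at the base before the RefSeq start site. For Gbp2 the GENCODE M21 gene starts at chr3:142620602, inside the window shown and before the marked pattern. Capitals mark the gamma-activated site pattern, TTC and GAA with any 3 bases between them, and the interferon-stimulated response element pattern, GAAA and GAAA with any 2 bases between them, each searched on both strands. The first pattern reads alike on both strands.
Gbp2, chr3:142620533-142620662: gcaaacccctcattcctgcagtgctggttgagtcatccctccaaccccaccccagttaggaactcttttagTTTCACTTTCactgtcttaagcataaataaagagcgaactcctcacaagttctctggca
Gbp7, chr3:142530206-142530335: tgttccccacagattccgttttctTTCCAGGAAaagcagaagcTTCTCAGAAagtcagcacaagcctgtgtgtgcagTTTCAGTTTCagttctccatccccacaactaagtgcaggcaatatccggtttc
Igtp, chr11:58199426-58199555: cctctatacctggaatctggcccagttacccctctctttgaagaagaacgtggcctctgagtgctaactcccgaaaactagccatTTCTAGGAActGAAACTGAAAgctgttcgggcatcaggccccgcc
Only genes with a pattern in the 130 bases were shown, so that each holds 1 follows from the choice. The second pattern starts 59, 53 and 34 bases before the RefSeq start site of Gbp2, Gbp7 and Igtp. Over 32851 promoters of 300 bases, a longer window than that shown, 3.44% hold it and 8.30% hold the first. Promoters of 5 of the 6 highest genes under anti-PD1 were matched by symbol, of which 3 hold the second pattern and 3 the first. Of the 22 listed interferon gamma and class I genes 19 were matched, of which 5 hold the second and 2 the first. Gbp2 is counted in both sets. A match describes letters and not a bound site.

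Prl2c3 was the only marker past 2-fold under anti-PD1, at 254 CPM in A159V IgG and 557 in the A159V anti-PD1 library, a log2 ratio of 1.13 (1.08 to 1.17). Its near copy Prl2c2, used in the gate, stood at 620 and 682 CPM. Nppb, the natriuretic peptide BNP, stood at 39.1 CPM in WT IgG, 28.4 in A159V IgG and 69.6 in the A159V anti-PD1 library. The single gene past 2-fold in the other direction was Bbs2, part of a complex that moves cargo into cilia, at 23.2, 65.3 and 16.5 CPM. It was followed by Cox6a2, Gm13822, Dlgap1, 1700034P13Rik and Ptcra at -0.92 to -0.70 on the log2 scale. For all 6 genes A159V IgG was the highest of the 3 libraries. Hmox1, Gdf15 and Rhox5 lay at -0.19, -0.27 and -0.05, and Dynap at 0.17. Of 4 measured chemokines 3 were higher under anti-PD1, a count without a background over all genes. Of these 0 passed 2-fold, and the median of the 4 was 0.32. Cxcl10, an interferon-induced T cell attractant, stood at 1663, 950 and 1271 CPM in negative cells of WT IgG, A159V IgG and A159V anti-PD1.

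Markers of other cells were low in the negative cells but moved with some results. The 12 immune markers summed to 89.6, 47.9 and 64.0 CPM, beside 8250 to 9166 CPM in immune cells. Cd74, the largest of them and a gene that interferon gamma is known to induce, stood at 49.1, 13.8 and 32.1 CPM. Whether its UMIs came from the tumor cells was not tested. Cd3e, which defines T cells, was at 0, 0.27 and 0.22 CPM, and C1qa, which defines macrophages, at 1.77, 2.56 and 1.69 CPM. Of 11 stromal markers 1 was at 0 in WT IgG and 1 in A159V anti-PD1. Among them Dcn had 227, 1243 and 669 UMIs in negative cells and was seen in 30.3%, 39.9% and 32.0% of them. Col1a1 had 25, 108 and 124 UMIs. Whether the tumor cells make Dcn themselves was not tested. Acta2 stood at 37.7 CPM in WT IgG and 1.05 in A159V IgG, with 98.4% of its WT UMIs in 1 cell. The part of these markers in the results was not tested. Median mitochondrial shares were 4.21%, 2.81% and 3.59% in the 3 libraries.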

How the data were processed

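Tumors of 4 groups were measured by 10x Genomics 3′ single-cell RNA-seq, 1 library per group. The deposited values are raw UMI counts per gene and cell, which the authors made with Cell Ranger (7.2.0 in the file headers, 5.0.1 in the submitters' processing notes) on mm10 and deposited before their removal of background RNA and doublets. Library totals were 54402632 to 125227747 UMIs over 7430 to 9311 cells.

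Cells were chosen by the counts stated above, and no doublet caller was run (leaving out the deepest 5% of cells, or the top cell of each gene, was added after seeing the data). The members and gene lists were chosen with earlier results of these data known. UMIs were summed over a class and scaled to CPM (Python 3.11.15, numpy 2.4.6, scipy 1.17.1, pandas 2.3.3). Log2 ratios used a pseudocount of 1 CPM and a delta-method interval, levels an exact Poisson interval, shares a Clopper-Pearson interval and folds of shares a Katz interval. Intervals and the limit of 3 counts for a count of 0 cover counting error only. A gene counted as higher or lower at 2-fold with at least 50 CPM in 1 of the 2 profiles, the 13 genes of the choice left out. The named genes were the 12 highest and lowest for genotype and for negative over positive cells (by the ratio nearest 0 with 1 sign in all 3 libraries), and 6 each for anti-PD1. Genes of hemoglobin, immunoglobulins, T cell receptors, mitochondria and ribosomal proteins were not named, nor were genes over 5-fold higher in immune or stromal cells. Thinning drew 5000 UMIs per cell. Only the log2 ratio, its 2-fold call and its interval were tested on simulated data. Those were Poisson counts of summed profiles, which hold no spread between cells. Coordinates come from GENCODE M21 and promoters from RefSeq, both on GRCm38. Some items withheld for evaluation are not reported here.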

Additional observations from a re-analysis of the deposited data

Results flagged for a closer look

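For 4 genes the ratio of negative over positive cells had 1 direction in WT IgG and the other in both A159V libraries, and the difference between the genotypes was not tested. Irf1, a transcription factor of the interferon response, lay at 0.33 on the log2 scale in WT IgG, -0.25 in A159V IgG and -0.32 in the A159V anti-PD1 library. Gbp3, an interferon-induced GTPase, lay at 0.26, -0.22 and -0.19. Pfkp, a phosphofructokinase of glycolysis, lay at 0.16, -0.12 and -0.14, and Zfhx3, a zinc finger homeobox factor, at -0.19, 0.20 and 0.19.

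Interferon-high tumor cells, which were left out of the negative cells, also included cells with 0 UMIs of Edil3, Col6a1 and Col6a2. They were 12.9% of these cells in WT IgG (12 of 93, interval 6.85 to 21.5), 54.9% in A159V IgG (78 of 142, 46.4 to 63.3) and 61.4% in the A159V anti-PD1 library (54 of 88, 50.4 to 71.6).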

How the results depend on the processing

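Of 331 alternative values of the main results 306 were labeled the same, 22 moved and 3 reversed. Of 2302 values of single genes and shares 1962 were labeled the same. A count of genes was the same within a set fold, and a gene or share within the counting interval of its main value. A list median was the same if it kept its sign within a set distance, which exceeded many of the medians. A gene under 2-fold was not labeled reversed when its sign changed. The fold of the negative share between A159V IgG and WT IgG was 2.28 when the gate also asked for 0 UMIs of 7 stromal and myeloid genes, 2.42 with at most 1 UMI of the 3 genes allowed, and 1.70 after thinning. Under the 7-gene gate the genotype comparison gave 73 higher genes, the anti-PD1 comparison 8 higher and 5 lower, and negative over positive cells 0 lower, the G2/M median was 0.30 in WT IgG, and the hypoxia median was 0.11 in A159V anti-PD1. With at most 1 UMI 4 genes were lower in negative cells of all libraries. The mean of per-cell CPM gave 2 lower genes under anti-PD1, and a pseudocount of 10 CPM gave 45 lower for genotype. A minimum of 20 CPM gave 88 higher and 130 lower for genotype, 11 and 4 for anti-PD1, and 2 lower in negative cells, and no minimum gave 400 and 403, 31 and 34, and 12. Leaving out the top cell of each gene, chosen after seeing the data, gave 43 higher and 58 lower genes for genotype. Matching on depth gave 8 higher under anti-PD1 and a G2/M median of 0.00178 in A159V IgG. Leaving out each library in turn gave 1 to 3 lower genes in negative cells, 3 of them without A159V anti-PD1. The cause of these differences was not tested, other than that a lower minimum admits more genes. Scaling moved the median of all genes from 0.08 to -0.01 for genotype and from 0.05 to 0.01 for anti-PD1. The anti-PD1 comparison in WT cells could not be computed, since WT anti-PD1 held 0 negative cells. No paired analysis was possible because each group has 1 library. A level under 93.0 CPM cannot be told from 0 in 1 WT IgG cell of median depth.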

Other observations

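Other listed groups gave small values in negative cells, and their counts by direction stand without a background over all genes. Of 16 glycosphingolipid enzymes 6 were measured, of which 3 were higher and 3 lower for genotype (A159V IgG over WT IgG) with a median of -0.02 on the log2 scale, and 6 of 6 higher under anti-PD1 with a median of 0.24. Of 19 integrins and matrix receptors 5 were measured, with medians of -0.26 for genotype and 0.21 for anti-PD1. Of 13 p53 targets 3 were measured for genotype, 2 higher and 1 lower by at least 2-fold (Plk2, at -1.14 on the log2 scale, and at -0.97 with its top cell left out of both libraries). Of 16 mesenchymal factors and TGF-beta targets 4 were measured, 2 higher and 2 lower for genotype with a median of -0.17. Prl2c3 was the only 1 of 12 placental prolactin and reproductive homeobox genes measured, apart from the genes of the gate. S100a6, a calcium-binding protein, was among the most abundant transcripts at 12635 CPM in WT IgG, 6539 in A159V IgG and 6781 in the A159V anti-PD1 library.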
